A study of Mus musculus with 9 samples.

Results

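Transforming growth factor beta (TGF-beta) signalling was followed through 10 genes, found by exact match of their symbols in the deposited count table: the ligands Tgfb1, Tgfb2 and Tgfb3, the receptors Tgfbr1, Tgfbr2 and Tgfbr3, the signal carrier Smad3, and the feedback genes Smad7, Pmepa1 and Skil. They were 10 of the 49671 genes in the table, and all 10 were among the 15766 genes that passed the filter on low counts and were tested. The samples were 9 RNA libraries in 3 groups of 3, all from Panc02 cells, an established mouse line of pancreatic ductal adenocarcinoma grown in culture without treatment. The group called parental was the wild type, unedited line. KO_1E7 was 1 clone labelled as a knock out of VPAC2, a receptor that binds vasoactive intestinal peptide and is encoded by Vipr2. CRISPR_1G2 was 1 clone labelled CRISPR-wild type, although the series' design text describes both clones as coming from the edited knockout cells. Each edited group is thus a single clone, so an effect of the edited gene and a difference between clones cannot be told apart. The study asked what loss of VPAC2 does to gene expression in this line.

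The secreted TGF-beta ligands are held in a latent form in the matrix and, once freed, bind the type II receptor kinase TGFBR2, which recruits and activates the type I receptor kinase TGFBR1. The betaglycan coreceptor TGFBR3 presents ligand, most of all TGF-beta2, and its shed form can sequester it. TGFBR1 phosphorylates SMAD2 and SMAD3, which join SMAD4 and switch on target genes. Among these targets are Smad7, Pmepa1 and Skil, whose products in turn hold the pathway back. In pancreatic cancer the pathway is known both as a brake on epithelial growth and as a driver of mesenchymal change.

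The clearest difference was in a feedback gene: Pmepa1 was lower in KO_1E7 than in either other group, and it was the only one of the 10 genes that passed the test against parental. Tgfbr3, present at a very low level throughout, was higher in KO_1E7 than in CRISPR_1G2. Tgfb3, Tgfbr1 and Smad3 had their 3 highest values in the 3 KO_1E7 libraries, yet did not pass the test over all genes. None of the 10 genes passed between CRISPR_1G2 and parental.

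Promoter sequences were at hand for 5 of the 10 genes in RefSeq's table for GRCm38.p6, and 4 of them are shown because they set the abundant ligand Tgfb1 beside the scarce ligand Tgfb2, and give 2 of the genes that were highest in KO_1E7, Tgfbr1 and Smad3. Each is the 250 bases before an annotated start, read 5′ to 3′ on the gene's own strand, with capitals for matches on either strand to GGGCGG (the GC box of the factor Sp1), CAGACA (letters that SMAD proteins bind), TGANTCA (the AP-1 site) and TATAAA (the TATA box).
Tgfb1, chr7:25686752-25687001, plus strand: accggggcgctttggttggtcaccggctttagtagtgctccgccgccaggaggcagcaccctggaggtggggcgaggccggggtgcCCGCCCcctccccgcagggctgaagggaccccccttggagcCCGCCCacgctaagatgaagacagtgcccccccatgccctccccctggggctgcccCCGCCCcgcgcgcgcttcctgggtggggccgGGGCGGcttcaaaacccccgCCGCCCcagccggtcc
Tgfb2, chr1:186705990-186706239, minus strand: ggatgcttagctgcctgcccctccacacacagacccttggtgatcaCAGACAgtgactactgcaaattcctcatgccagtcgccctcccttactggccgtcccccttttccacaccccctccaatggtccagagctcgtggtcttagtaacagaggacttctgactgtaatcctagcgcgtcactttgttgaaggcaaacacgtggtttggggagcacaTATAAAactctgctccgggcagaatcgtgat
Tgfbr1, chr4:47352972-47353221, plus strand: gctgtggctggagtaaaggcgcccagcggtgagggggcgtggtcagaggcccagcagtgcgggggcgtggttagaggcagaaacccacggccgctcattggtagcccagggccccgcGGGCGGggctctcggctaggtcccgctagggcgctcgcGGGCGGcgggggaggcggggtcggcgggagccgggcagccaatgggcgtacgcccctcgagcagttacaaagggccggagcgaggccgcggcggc
Smad3, chr9:63757995-63758244, minus strand: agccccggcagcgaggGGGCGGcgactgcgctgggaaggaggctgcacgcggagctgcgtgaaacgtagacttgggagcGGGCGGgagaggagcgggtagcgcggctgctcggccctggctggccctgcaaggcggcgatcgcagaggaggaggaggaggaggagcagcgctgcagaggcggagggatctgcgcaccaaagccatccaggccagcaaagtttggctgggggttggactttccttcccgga
The Tgfb1 window held 5 GC boxes and was 75.2% G or C, while the Tgfb2 window held no GC box, 1 TATA box and 1 CAGACA and was 53.6% G or C. The Tgfbr1 window shown (74.8% G or C) and the Smad3 window (69.2%) each held 2 GC boxes and none of the other motifs. The table has a second Tgfbr1 start, whose window (chr4:47385966-47386215, 52.8% G or C) held no GC box and 1 CAGACA. The window of Tgfbr2 held none of the 4 motifs. No capitalised matches overlapped each other. Of the 32851 windows in the table, 32.7% held at least 1 GC box, 16.7% at least 2 and 1.93% at least 5, while 17.1% held CAGACA, 12.4% TATAAA and 6.75% TGANTCA, and the median window was 52.4% G or C. A match describes letters in a window and not a site in use.

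Depth was between 27898705 and 51878289 gene counts per library. Of these, 2 libraries stood apart, parental 3 and CRISPR_1G2 3: Mdm2, a target of p53, was at 1857 and 3910 CPM (gene counts scaled to a common library size) in them against 646 to 1173 in the other 7, and Cdkn1a, another p53 target, was at 189 and 480 CPM against 31.8 to 72.9. Genes related to ribosomal RNA took 21.9% of the counts of parental 3 and between 0.937% and 1.71% of the others. Replicate 3 of every group has the word NSG in place of a date in its column name, which the labels do not explain, so each group has 2 dated libraries and 1 of the other kind. Vipr2 itself had 6, 3 and 12 counts in the parental libraries, 1, 2 and 1 in KO_1E7 and 1, 13 and 12 in CRISPR_1G2, too few to check the labels. Epithelial genes marked all groups, with the 10 pancreatic duct markers summing to 1360 to 2052 CPM in parental, 1287 to 2108 in KO_1E7 and 896 to 2113 in CRISPR_1G2. Single markers differed: Krt7, a duct keratin, was at 4.01 to 5.31 CPM in KO_1E7, lower than in parental (17.7 to 30.5 CPM, edgeR adjusted p = 0.0323) and CRISPR_1G2 (13.7 to 67.2 CPM, adjusted p = 0.00759), and Epcam was lower than in CRISPR_1G2 (adjusted p = 0.0292). The 6 acinar markers summed to 7.39 to 13.3 CPM in KO_1E7, 2.24 to 2.87 in parental and 1.19 to 2.21 in CRISPR_1G2. Nearly all of that was Cela1, which was higher in KO_1E7 than in both (adjusted p = 0.0165 and 0.00340), while Amy2a5 was at 0 and the other 4 never passed 0.193 CPM. Immune markers summed to 3.34 to 21.7 CPM in parental, 20.2 to 21.8 in KO_1E7 and 18.8 to 28.1 in CRISPR_1G2. Endothelial markers summed to at most 1.83, islet markers to at most 0.0305 and red cell markers to at most 0.315 in any library. Only 6 of 8 immune and 2 of 5 endothelial markers were tested, with no call among them. No islet or red cell marker passed the filter on low counts, so none of those could be called. The part of these markers in the differences between KO_1E7 and the other groups was not tested. In bulk RNA, a change in the number of cells that express a gene and a change in RNA per cell cannot be told apart.

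Among the ligands, Tgfb1 and Tgfb3 made up nearly all of the transcript. Tgfb1 (ENSMUSG00000002603, chr7:25687002-25705077 of GRCm38, plus strand), the ligand best known from immune and stromal tissue, was at 72.9, 81.9 and 34.3 CPM in the 3 parental libraries, 60.9, 77.9 and 47.3 CPM in KO_1E7, and 86.2, 94.5 and 24.2 CPM in CRISPR_1G2. The groups overlapped fully, and the lowest values were those of parental 3 and CRISPR_1G2 3, the libraries with the highest Mdm2 and Cdkn1a. The log2 fold change was -0.02 ± 0.49 (SE; 95% interval -1.14 to 1.10) for KO_1E7 against parental, 0.11 ± 0.49 for CRISPR_1G2 against parental and -0.14 ± 0.49 for KO_1E7 against CRISPR_1G2. The intervals of the other comparisons were -1.004 to 1.23 and -1.26 to 0.98, so the data do not fix the direction of any of these Tgfb1 differences. With parental 3, CRISPR_1G2 3 and KO_1E7 2 left out, Tgfb1 passed as lower in KO_1E7, at -0.51 against parental (edgeR adjusted p = 0.0217) and -0.73 against CRISPR_1G2 (adjusted p = 0.00337). The libraries left out held the lowest parental and CRISPR_1G2 values and the highest KO_1E7 value of Tgfb1. These Tgfb1 calls thus depend on the choice of libraries and were made in 1 of the 20 settings tried. Tgfb1 lies on chromosome 7, where the median tested gene of KO_1E7 stood -0.42 on the log2 scale from the median of all tested genes in the comparison with parental, and -0.50 in that with CRISPR_1G2. The part of the chromosome, and of the libraries that stood apart, in the Tgfb1 values was not tested.

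Tgfb3 (ENSMUSG00000021253, chr12:86056744-86079041, minus strand), a ligand known for its role in palate fusion and scarless repair, was at 32.3, 43.1 and 24.0 CPM in parental, 52.3, 55.0 and 60.1 CPM in KO_1E7, and 40.8, 38.2 and 29.1 CPM in CRISPR_1G2. All 3 KO_1E7 libraries lay above all 6 others. The log2 difference was 0.75 ± 0.22 (95% interval 0.25 to 1.25, edgeR adjusted p = 0.0811) against parental and 0.63 ± 0.22 (0.13 to 1.13, adjusted p = 0.0958) against CRISPR_1G2, neither past the threshold of 0.05 over all tested genes. In the dated libraries the differences were 0.52 (adjusted p = 0.0668) and 0.46 (adjusted p = 0.0684). With a term for the NSG libraries in the fit to all 9, they were 0.79 (adjusted p = 0.0315) and 0.66 (adjusted p = 0.0385), and both passed. That term takes the NSG libraries of all groups to share 1 shift. Tgfb3 was instead lowest in the NSG library of parental and of CRISPR_1G2, and highest in that of KO_1E7. Between CRISPR_1G2 and parental it was 0.12 ± 0.22 (adjusted p = 0.968). An antisense gene, Gm37804, shares 163 exon bases with Tgfb3 and had 67 counts over all libraries. The kit does not mark strand, so the reads in that stretch cannot be assigned to either gene. Ttll5, also antisense, overlaps the Tgfb3 locus with 0 shared exon bases and had 16748 counts. By library, unscaled, these were 1819, 1745 and 1071 in parental, 1976, 4143 and 2061 in KO_1E7, and 1462, 1646 and 825 in CRISPR_1G2. Whether unspliced Ttll5 reads entered the Tgfb3 counts was not tested.

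Tgfb2 (ENSMUSG00000039239, chr1:186622792-186705989, minus strand) was near the floor of detection, with 18, 13 and 28 counts in parental, 10, 14 and 13 in KO_1E7, and 7, 14 and 55 in CRISPR_1G2. In CPM this was 0.543 ± 0.214 (SD, n = 3), 0.312 ± 0.0664 and 0.792 ± 0.774. A single library, CRISPR_1G2 3, carried the highest value at 1.68 CPM, and no comparison passed (log2 -0.80 ± 0.68 for KO_1E7 against parental, 0.55 ± 0.65 for CRISPR_1G2 against parental, -1.35 ± 0.68 for KO_1E7 against CRISPR_1G2). The antisense gene Gm29491 shares 124 exon bases with Tgfb2 and had 9 of its 21 counts in that same library.

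**Figure D1:**
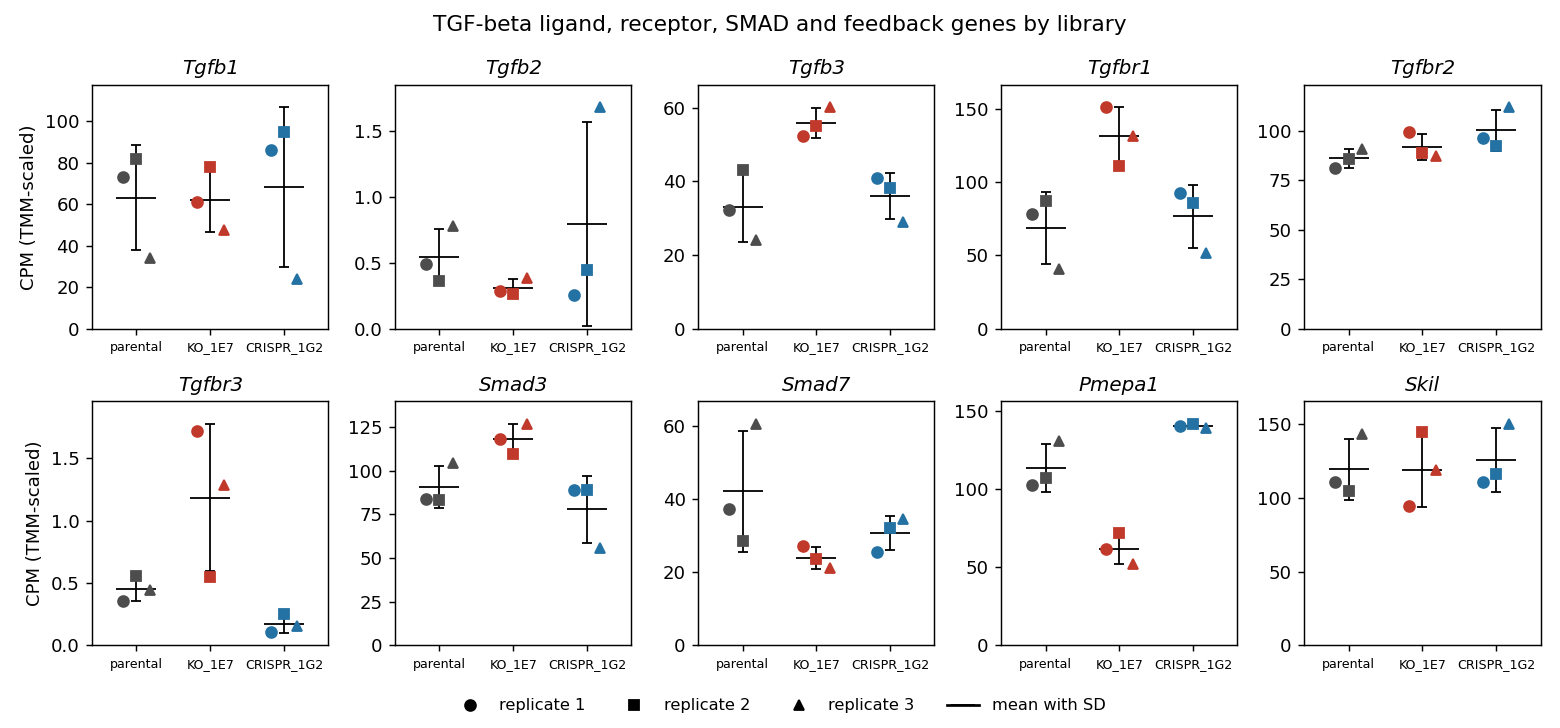
Level of each of the 10 genes in every library, in CPM with TMM-scaled library sizes, by group on the horizontal axis; points are libraries, with the marker giving the replicate, and lines are the group mean and SD. Pmepa1 in KO_1E7 lies at 51.9 to 71.7 CPM, below all 6 other libraries (103 to 142), and the 3 KO_1E7 values of Tgfb3, Tgfbr1 and Smad3 lie above all others.

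Per kilobase of exon, the ligands could be set beside each other. Their summed level was 24.1, 29.0 and 14.0 RPKM (CPM per kilobase) in parental, 27.6, 31.7 and 27.2 RPKM in KO_1E7, and 29.2, 30.1 and 13.7 RPKM in CRISPR_1G2. The lowest 2 sums were again those of parental 3 and CRISPR_1G2 3. Tgfb3 made up 39.6%, 43.8% and 50.5% of the sum in parental, 56.0%, 51.2% and 65.3% in KO_1E7, and 41.3%, 37.5% and 62.8% in CRISPR_1G2. The Tgfb3 share was thus above that of Tgfb1 in all 3 KO_1E7 libraries, and also in parental 3 and CRISPR_1G2 3. The mean Tgfb3 share was 57.5% ± 7.16 (SD, n = 3) in KO_1E7 and 44.7% ± 5.51 in parental, without overlap, for an exact two-sided permutation p of 0.1, the smallest that 3 against 3 can give (adjusted p = 0.4 over 12 such tests). Against the 47.2% ± 13.7 of CRISPR_1G2 the exact permutation p was 0.3. Tgfb2 never passed 2.12% of the sum.

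The 3 receptors behaved differently from each other. Tgfbr1 (ENSMUSG00000007613, chr4:47353222-47414931, plus strand), the type I kinase that phosphorylates SMAD2 and SMAD3, was at 78.0, 87.4 and 41.0 CPM in parental, 151, 111 and 131 CPM in KO_1E7, and 92.2, 85.5 and 51.7 CPM in CRISPR_1G2. Every KO_1E7 library was above all the others, and parental 3 and CRISPR_1G2 3 were the lowest of their groups. The log2 difference was 0.93 ± 0.31 (95% interval 0.23 to 1.63, edgeR adjusted p = 0.113) against parental and 0.78 ± 0.31 (0.08 to 1.48, adjusted p = 0.134) against CRISPR_1G2, not past the threshold. Without parental 3 and CRISPR_1G2 3, the estimates were smaller, 0.67 and 0.57, and both passed (adjusted p = 0.0111 and 0.0142). Within the dated libraries alone, 2 per group, they were 0.67 (adjusted p = 0.0406) and 0.58 (adjusted p = 0.0439). With a term for the NSG libraries they were 1.01 (adjusted p = 0.0229) and 0.84 (adjusted p = 0.0273). That term takes 1 shift to be shared by all groups, while KO_1E7 3, unlike parental 3 and CRISPR_1G2 3, was not the lowest of its group.

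Tgfbr2 (ENSMUSG00000032440, chr9:116084293-116175360, minus strand), the type II kinase that binds ligand first, had the smallest standard errors of the set. It was at 81.4, 85.9 and 91.1 CPM in parental, 99.5, 89.1 and 87.6 CPM in KO_1E7, and 96.4, 92.4 and 112 CPM in CRISPR_1G2. The CRISPR_1G2 values all lay above the parental ones, by a log2 difference of 0.22 ± 0.12 (95% interval -0.06 to 0.49, edgeR adjusted p = 0.749). The intervals of the other comparisons were -0.18 to 0.37 for KO_1E7 against parental and -0.40 to 0.15 for KO_1E7 against CRISPR_1G2, and neither passed.

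Set against each other per kilobase, Tgfbr1 stood at 1.20, 1.27 and 0.563 times Tgfbr2 in parental, 1.90, 1.56 and 1.88 times in KO_1E7, and 1.20, 1.16 and 0.578 times in CRISPR_1G2. The ratio was highest in the 3 KO_1E7 libraries and below 1 in parental 3 and CRISPR_1G2 3 alone. Group means were 1.78 ± 0.189 (SD, n = 3) in KO_1E7, 1.01 ± 0.391 in parental and 0.979 ± 0.348 in CRISPR_1G2, and each contrast of KO_1E7 gave the smallest exact permutation p the design allows, 0.1 (adjusted p = 0.4).

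**Figure D2:**
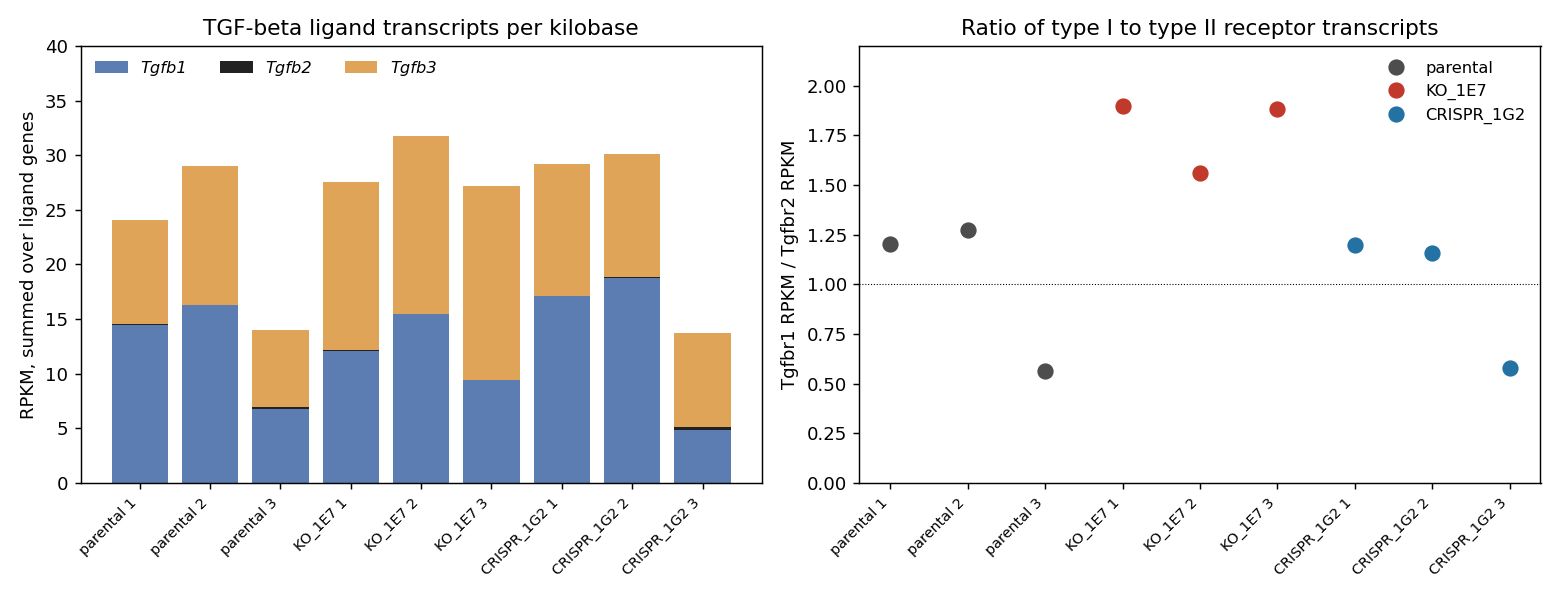
Left, RPKM of Tgfb1, Tgfb2 and Tgfb3 stacked for each library; right, the ratio of Tgfbr1 RPKM to Tgfbr2 RPKM in each library, coloured by group, with a dotted line at 1. The ratio lies between 1.56 and 1.90 in KO_1E7 and at most 1.27 elsewhere, and the 2 lowest ligand sums, 14.0 and 13.7 RPKM, are those of parental 3 and CRISPR_1G2 3.

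Tgfbr3 (ENSMUSG00000029287, chr5:107106570-107289629, minus strand), the betaglycan coreceptor, was scarce: 13, 20 and 16 counts in parental, 61, 29 and 43 in KO_1E7, and 3, 8 and 5 in CRISPR_1G2. In CPM these were 0.355, 0.552 and 0.445, then 1.72, 0.549 and 1.28, then 0.109, 0.252 and 0.153. KO_1E7 and CRISPR_1G2 did not overlap, CRISPR_1G2 also lay wholly below parental, and KO_1E7 2 fell inside the parental range. Pooled over libraries, the level was 1.09 CPM in KO_1E7 (133 counts, exact 95% Poisson interval 0.915 to 1.30), 0.450 in parental (49 counts, 0.333 to 0.595) and 0.174 in CRISPR_1G2 (16 counts, 0.0994 to 0.282), intervals that cover counting error only.

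The Tgfbr3 difference between KO_1E7 and CRISPR_1G2 was 2.75 ± 0.53 on the log2 scale (95% interval 1.54 to 3.95), a 6.72-fold higher level in KO_1E7 that passed the edgeR test (adjusted p = 0.0141). KO_1E7 was 1.38 ± 0.48 above parental (adjusted p = 0.127) and CRISPR_1G2 was -1.37 ± 0.54 from parental (adjusted p = 0.597), neither past the threshold with all 9 libraries. Without parental 3, CRISPR_1G2 3 and KO_1E7 2, KO_1E7 did pass against parental (1.73, adjusted p = 0.0196). KO_1E7 2 is the library that fell inside the parental range, so this call depends on leaving it out. It was made in 1 of the 20 settings tried. The call between the clones was lost without KO_1E7 1 (adjusted p = 0.0595), without KO_1E7 3 (0.0603) or without CRISPR_1G2 1 (0.0529). In the dated libraries the log2 difference was 2.601 (adjusted p = 0.0474). At 3 to 8 counts per CRISPR_1G2 library the size of the difference is poorly fixed. The summed level of 6 fibroblast markers was 59.4 to 77.5 CPM in parental, 59.8 to 133 in KO_1E7 and 27.8 to 47.7 in CRISPR_1G2. Pdgfrb supplied most of it and was the highest of these markers in each library. Of the 6 markers 3 were tested, and Pdgfrb alone was called, higher in KO_1E7 than in CRISPR_1G2 (log2 1.83, edgeR adjusted p = 0.0106). In that comparison Pdgfra was at 0.22 (adjusted p = 0.698) and Col3a1 at 0.65 (adjusted p = 0.673). The defining markers Dcn, Lum and Fap never passed 0.593 CPM and were not tested. The part of these markers in the Tgfbr3 result was not tested.

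Smad3 (ENSMUSG00000032402, chr9:63646767-63757994, minus strand), which carries the signal from TGFBR1 to the nucleus, was at 84.1, 83.1 and 104 CPM in parental, 118, 110 and 127 CPM in KO_1E7, and 89.0, 88.8 and 55.8 CPM in CRISPR_1G2. KO_1E7 was above both other groups without overlap, and CRISPR_1G2 3 was the lowest of the 9. The log2 difference was 0.38 ± 0.19 against parental (95% interval -0.05 to 0.82, edgeR adjusted p = 0.268) and 0.60 ± 0.19 against CRISPR_1G2 (0.16 to 1.04, adjusted p = 0.0762). Neither passed with all 9 libraries. Both did without parental 3 and CRISPR_1G2 3, at 0.50 (adjusted p = 0.00752) and 0.42 (adjusted p = 0.00999), and within the dated libraries, at 0.46 (adjusted p = 0.0322) and 0.38 (adjusted p = 0.0374). Each of these settings leaves out parental 3, the parental library with the highest Smad3, so the calls against parental depend on the choice of libraries.

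The 3 feedback genes did not move as a block. Pmepa1 (ENSMUSG00000038400, chr2:173224458-173276533, minus strand) encodes a membrane protein that binds SMAD2 and SMAD3 and keeps them from the receptor. Per kilobase it was the most abundant of the 10 genes in parental (23.1 ± 3.08 RPKM, SD, n = 3) and in CRISPR_1G2 (28.6 ± 0.279), whereas in KO_1E7 (12.6 ± 2.01) it stood below Smad3, Tgfbr1 and Tgfb3. By library it was at 103, 107 and 131 CPM in parental, 61.4, 71.7 and 51.9 CPM in KO_1E7, and 140.3, 142 and 139 CPM in CRISPR_1G2. All 3 KO_1E7 libraries were below all 6 others, and all 3 CRISPR_1G2 libraries were above the parental ones.

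Pmepa1 fell by 0.88 ± 0.15 on the log2 scale in KO_1E7 against parental (95% interval -1.22 to -0.54, edgeR adjusted p = 0.0186), a 1.84-fold lower level, and by 1.19 ± 0.15 against CRISPR_1G2 (-1.53 to -0.84, adjusted p = 0.00352), a 2.28-fold lower level. CRISPR_1G2 was 0.31 ± 0.15 above parental (-0.03 to 0.65, adjusted p = 0.696), which did not pass. Leaving out parental 1 (adjusted p = 0.0518), KO_1E7 1 (0.0844) or KO_1E7 3 (0.0999) ended the call against parental, while that against CRISPR_1G2 was made under each of the 20 alternatives tried. Within the dated libraries the differences were -0.64 (adjusted p = 0.0199) and -1.06 (adjusted p = 0.00369), and the single libraries of the other kind were at 131 CPM for parental, 51.9 for KO_1E7 and 139 for CRISPR_1G2.

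Around Pmepa1 on chromosome 2, of the 3 tested genes on each side, Rbm38 was lower in KO_1E7 than in CRISPR_1G2 (log2 -1.31, adjusted p = 0.0180) and Ppp4r1l-ps was higher (0.80, adjusted p = 0.0189), while the adjusted p of the other 4 was at least 0.101. The median tested gene of chromosome 2 lay -0.17 from that of all genes in KO_1E7 against parental and -0.24 against CRISPR_1G2. The 5 genes most like Pmepa1 over the 9 libraries, by Pearson correlation of log2 CPM, were Gm12254 (0.991), Pdgfc (0.988), Hoxb4 (0.982), Nectin2 (0.981) and Prag1 (0.981). Those most like Tgfbr3 were Mdc1 (0.985), Pde6h (0.977), Tacc1 (0.971), Smarca1 (0.971) and Gm37818 (0.970). These correlations describe libraries that share their groups, and many genes were searched for them.

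Smad7 (ENSMUSG00000025880, chr18:75367529-75395935, plus strand), the inhibitory SMAD that brings ubiquitin ligases to the receptor, was at 37.3, 28.6 and 60.6 CPM in parental, 27.2, 23.5 and 21.3 CPM in KO_1E7, and 25.6, 32.0 and 34.5 CPM in CRISPR_1G2. KO_1E7 lay below parental without overlap, parental 3 was by far the highest library, and the clones overlapped. The log2 difference was -0.81 ± 0.27 for KO_1E7 against parental (95% interval -1.42 to -0.21, edgeR adjusted p = 0.108), not past the threshold, and -0.37 in the dated libraries (adjusted p = 0.215). It was -0.46 ± 0.26 for CRISPR_1G2 against parental (adjusted p = 0.765) and -0.36 ± 0.26 for KO_1E7 against CRISPR_1G2 (adjusted p = 0.413).

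Skil (ENSMUSG00000027660, chr3:31095058-31122577, plus strand), which encodes the SMAD corepressor SnoN, was at 111, 104 and 143 CPM in parental, 94.3, 145 and 119 CPM in KO_1E7, and 111, 116 and 150.4 CPM in CRISPR_1G2. The 3 groups overlapped, and their means were 119 ± 20.8, 119 ± 25.1 and 126 ± 21.5 CPM (SD, n = 3). The largest of the 3 log2 estimates in size was -0.08 ± 0.20, with an interval of -0.54 to 0.38 for KO_1E7 against CRISPR_1G2. The intervals of the other comparisons were -0.46 to 0.46 for KO_1E7 against parental and -0.39 to 0.53 for CRISPR_1G2 against parental. Skil was measured at ample depth, but with this spread between libraries the data do not fix the direction of any of its differences.

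**Figure D3:**
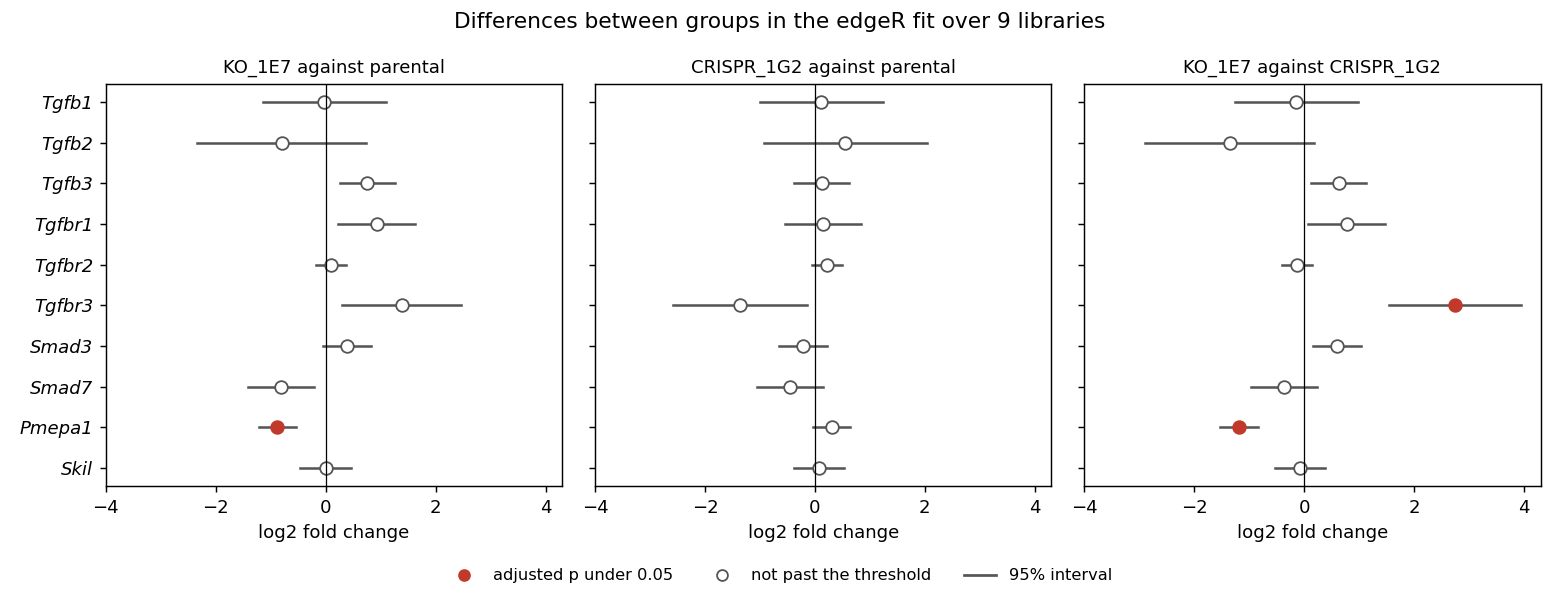
Log2 fold change of each gene with its 95% interval in the 3 comparisons of the edgeR fit; filled red points passed an adjusted p of 0.05 over all 15766 genes. Pmepa1 is red at -0.88 and -1.19 in the KO_1E7 comparisons and Tgfbr3 at 2.75 in KO_1E7 against CRISPR_1G2, while no point is red in CRISPR_1G2 against parental.

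Counted over the set, 1 of 10 genes was called in KO_1E7 against parental (Pmepa1, lower), where 5.42% of all tested genes were called (2.54% higher, 2.87% lower). In KO_1E7 against CRISPR_1G2, 2 of 10 were called (Tgfbr3 higher, Pmepa1 lower), against 12.7% of all (5.71% higher, 7.03% lower). In CRISPR_1G2 against parental, edgeR called 0 of 10, as did DESeq2, with 1 gene (Tgfbr3) at an unadjusted p under 0.05, and 0.254% of all genes were called by edgeR and 1.49% by DESeq2. The shares of the 10 genes were near those of all genes, at counts this small. Groups did not overlap for 5 of 10 genes in KO_1E7 against parental (34.4% of all tested genes, 17.2% higher and 17.3% lower), 3 of 10 in CRISPR_1G2 against parental (13.1%, with 6.64% higher and 6.45% lower) and 5 of 10 in KO_1E7 against CRISPR_1G2 (38.6%, with 19.2% higher and 19.4% lower). The median size of the log2 change, without sign, was 0.78, 0.22 and 0.62 over the 10 genes in those 3 comparisons, beside 0.34, 0.20 and 0.39 over all tested genes. The signed medians, 0.05, 0.12 and -0.10, stayed near those of all genes (-0.03, 0.02 and -0.03), since genes of the set lay on both sides. The 2 comparisons with KO_1E7 share its 3 libraries, so they are not separate evidence. In a test for any difference among the 3 groups, Pmepa1 (adjusted p = 0.00825) and Tgfbr3 (0.0309) passed, where 8.54% of all genes did.

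Without the libraries that stood apart, more genes were called, in the set and among all genes. Without parental 3 and CRISPR_1G2 3, 4 of 10 genes passed in KO_1E7 against parental (Tgfb3, Tgfbr1 and Smad3 higher, Pmepa1 lower) and 5 of 10 in KO_1E7 against CRISPR_1G2 (the same 4 and Tgfbr3), where 21% and 29.1% of all genes passed. CRISPR_1G2 against parental again gave 0 of 10 (0.265% of all genes), by edgeR. Tgfb3 was then 0.57 (adjusted p = 0.0186) above parental and 0.51 (adjusted p = 0.0208) above CRISPR_1G2. With KO_1E7 2 left out as well, 6 of 10 passed in each comparison of KO_1E7 (Tgfb3, Tgfbr1, Tgfbr3 and Smad3 higher, Tgfb1 and Pmepa1 lower), where 28.3% and 35.5% of all genes did, and 0 of 10 between CRISPR_1G2 and parental (2.09%). KO_1E7 2 did not share the high Mdm2 and Cdkn1a of parental 3 and CRISPR_1G2 3. Tgfb1 in both comparisons, and Tgfbr3 against parental, passed in this setting only. In the dated libraries alone, 3 of 10 passed in KO_1E7 against parental and 4 of 10 against CRISPR_1G2, where 11% and 19.8% of all genes did, and 0 of 10 between CRISPR_1G2 and parental (0.19%). DESeq2 on all 9 libraries called 4 in each of these comparisons (15% and 21.4% of all genes). Those against parental were Pmepa1, Tgfb3 (adjusted p = 0.0163), Tgfbr1 (0.0343) and Smad7 (0.0474), and those against CRISPR_1G2 were Pmepa1, Tgfbr3, Tgfb3 (0.0449) and Smad3 (0.0298).

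Beyond the 10 genes, 103 other genes of the pathway were taken in 7 lists, and 91 of them were tested. In KO_1E7 against parental, 2 rose and 3 fell (5.49% of 91, beside 5.42% of all genes). In KO_1E7 against CRISPR_1G2, 6 were higher and 10 lower (17.6%, beside 12.7% of all). For CRISPR_1G2 against parental, edgeR called 0 of 91 and DESeq2 1. The counts hung on single libraries: leaving out 1 gave 0 to 15 for KO_1E7 against parental, with 0 without KO_1E7 1, KO_1E7 3 or parental 2, and 15 without CRISPR_1G2 3. For KO_1E7 against CRISPR_1G2 the range was 3 (without KO_1E7 1) to 19 (without parental 3).

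**Figure D4:**
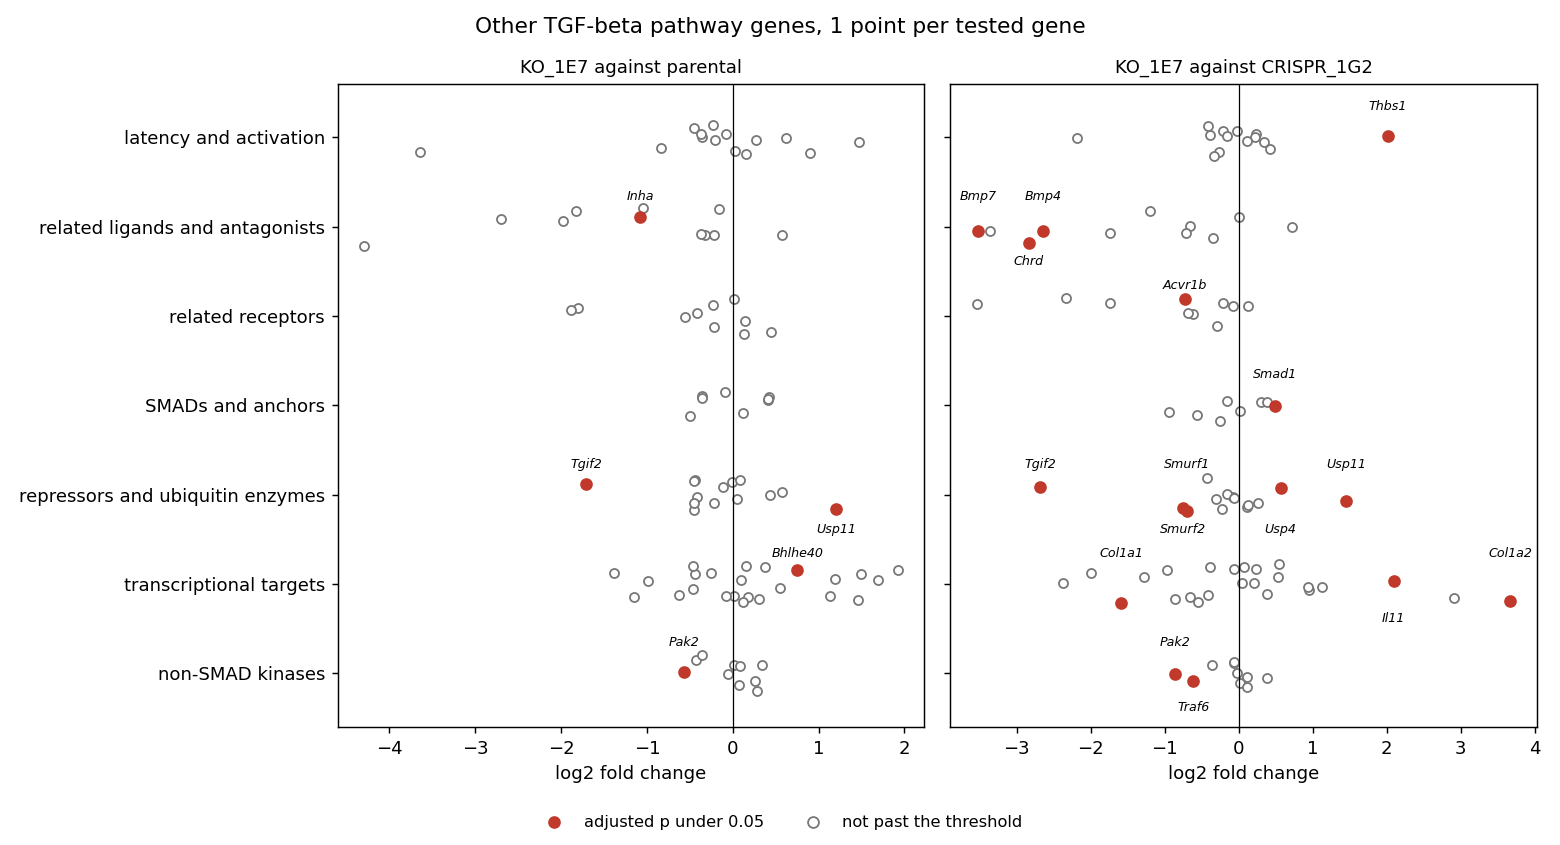
Log2 fold change of each of the 91 tested genes in 7 pathway lists, for KO_1E7 against parental (left) and against CRISPR_1G2 (right), 1 point per gene spread vertically for legibility; filled red points passed an adjusted p of 0.05. Calls lie on both sides of 0, with 5 named on the left and 16 on the right.

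Of 14 tested genes of ligand storage and activation, 1 was called: Thbs1, whose product thrombospondin 1 can free latent TGF-beta, was at 139.5, 151 and 166 CPM in parental, 550.2, 218 and 499 in KO_1E7, and 55.1, 101 and 156 in CRISPR_1G2. KO_1E7 was above both other groups without overlap; the difference passed against CRISPR_1G2 (log2 2.02 ± 0.42, edgeR adjusted p = 0.0187) and not against parental (1.48, adjusted p = 0.0741). Itgb1, an integrin subunit and the most abundant gene of the list without a call, was at 747, 1147 and 853 CPM (group means, in the order parental, KO_1E7, CRISPR_1G2; adjusted p = 0.0554 and 0.107 for KO_1E7 against each).

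Of 11 tested related ligands and antagonists, 1 was called against parental and 3 against CRISPR_1G2, all lower in KO_1E7. Their median log2 change was -1.04 against parental and -1.20 against CRISPR_1G2, beside -0.03 for all genes in both. Inha, the inhibin alpha subunit, fell against parental (3.20 to 1.51 CPM, log2 -1.08 ± 0.24, adjusted p = 0.0398). Against CRISPR_1G2, lower levels were called for the ligand Bmp4 (23.3 CPM against 145, log2 -2.64 ± 0.60, adjusted p = 0.0248), the ligand Bmp7 (0.885 against 10.6, -3.52 ± 0.96, adjusted p = 0.0458) and the BMP antagonist Chrd (0.118 against 0.907, -2.84 ± 0.62, adjusted p = 0.0218). Chrd had 16 counts in all of KO_1E7. Bmp4 was itself uneven: its libraries were at 70.7, 64.6 and 140.4 CPM in parental and 87.9, 75.6 and 272 in CRISPR_1G2, highest in each group in the library with the highest Mdm2. Gdf15 (206 CPM in parental 3 and 132 in CRISPR_1G2 3), Fst, Fstl3 and Inhba were also highest of their groups in parental 3 and CRISPR_1G2 3. Gdf11 and Bmp1 were lowest there. Fst gave the median against parental. The part of these 2 libraries in the medians of the list was not tested. Inhba, the activin A subunit, was the most abundant without a call, with a mean of 129 CPM in parental, 115 in KO_1E7 and 147 in CRISPR_1G2.

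Of 10 tested related receptors, Acvr1b, a type I activin receptor that also phosphorylates SMAD2 and SMAD3, was lower in KO_1E7 than in CRISPR_1G2 (53.1 CPM against 87.7, log2 -0.72 ± 0.20, adjusted p = 0.0450). Of 8 tested SMADs and anchors, Smad1, a carrier of BMP signals, was higher (53.7 CPM against 38.0, 0.50 ± 0.12, adjusted p = 0.0284). The most abundant genes of these lists without a call were the BMP receptor Bmpr1a (mean of 101 CPM in parental, 137 in KO_1E7 and 126 in CRISPR_1G2) and Trim33, which binds activated SMADs (107, 83.8 and 100.1 CPM).

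The 14 repressors and ubiquitin enzymes held 2 of the 5 calls against parental and 5 of the 16 against CRISPR_1G2, the largest number of any of the 7 lists in either comparison. The lists differ in size, at 8 to 24 tested genes, and such small counts do not rank them. Over all tested genes, 5.42% and 12.7% were called. Tgif2, a corepressor of SMAD targets, fell against both groups (1.04 CPM in KO_1E7 against 3.43 in parental, log2 -1.71 ± 0.37, adjusted p = 0.0375, and 6.76 in CRISPR_1G2, -2.69 ± 0.38, adjusted p = 0.00502). Usp11, a deubiquitinase reported to act on TGFBR1, rose against both (32.5 CPM against 14.1, log2 1.20 ± 0.23, adjusted p = 0.0270, and against 11.9, 1.45 ± 0.23, adjusted p = 0.00731). Usp4, another such deubiquitinase, was higher than in CRISPR_1G2 (124 CPM against 83.9, adjusted p = 0.0375). The ubiquitin ligases Smurf1 (87.8 CPM against 142, log2 -0.70 ± 0.15, adjusted p = 0.0189) and Smurf2 (62.9 against 106, -0.75 ± 0.18, adjusted p = 0.0301), which SMAD7 brings to the receptor, were lower. Strap was the most abundant gene of this list without a call, with a mean of 369 CPM in parental, 318 in KO_1E7 and 374 in CRISPR_1G2.

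Known transcriptional targets of the pathway did not move one way. Of 24 tested, the median log2 change was 0.14 against parental and 0.06 against CRISPR_1G2. Bhlhe40, a transcriptional repressor, rose against parental (78.8 to 133 CPM, log2 0.75 ± 0.18, adjusted p = 0.0458). Against CRISPR_1G2, the cytokine gene Il11 was higher (9.21 CPM against 2.15, 2.09 ± 0.50, adjusted p = 0.0292), and the 2 type I collagen chains went opposite ways: Col1a2 was higher (2.99 CPM against 0.232, 3.67 ± 1.02, adjusted p = 0.0482) and Col1a1 lower (7.78 against 23.4, -1.59 ± 0.43, adjusted p = 0.0449). The Col1a2 value came mainly from KO_1E7 1, at 6.47 CPM against 0.872 and 1.64 in its other libraries. Fibronectin, Fn1, the most abundant target, was at 2050.1 CPM in parental, 1937 in KO_1E7 and 1015 in CRISPR_1G2, and KO_1E7 did not pass against either (adjusted p = 0.912 and 0.105).

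Of 10 tested kinases and adaptors of the routes that bypass the SMADs, Pak2, a cytoskeletal kinase, fell against both groups (92.4 CPM against 137, log2 -0.57 ± 0.13, adjusted p = 0.0398, and against 168, -0.86 ± 0.13, adjusted p = 0.00603). Traf6, an adaptor that binds TGFBR1, was lower than in CRISPR_1G2 (33.7 CPM against 51.7, -0.61 ± 0.15, adjusted p = 0.0337). Akt1 was the most abundant without a call, with a mean of 337 CPM in parental, 356 in KO_1E7 and 330.3 in CRISPR_1G2.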

How the data were processed

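Per the labels' protocols, oligo-dT selected RNA went into NEBNext Ultra II RNA libraries, which carry no strand information. Per the submitters' processing notes, bcl2fastq 2.17, STAR 2.5.2b with GRCm38, and featureCounts (Subread 1.5.2) were used. Neither annotation release nor strand setting is given in the sources used here. For 9 libraries, the authors deposited unnormalized counts per gene. The 92 spike-ins (0.344% to 0.820% of counts) entered neither library sizes nor tests.

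Counts were fitted with edgeR 4.0.16 in R 4.3.3 (TMM scaling, filterByExpr, robust quasi-likelihood F-test) over all 9 libraries and 15766 genes in 1 model, with Benjamini-Hochberg adjustment over all genes and a threshold of 0.05. CPM use TMM-scaled library sizes; RPKM divide CPM by the deposited exon length. Ratios were compared with exact permutation tests. DESeq2 1.42.0, other scalings and filters, and fits without single libraries or without named sets of them, were alternatives; the fit to dated libraries alone, and all alternatives to the test for any difference, were added after seeing the data. Same-numbered libraries of parental and CRISPR_1G2 deviated together in all 3 pairs (correlations 0.243, 0.469 and 0.647), a pattern that comes from the data and not the labels. Those of KO_1E7 with either did not in every pair. By the dates in the column names, parental 1 and KO_1E7 1 share a date (correlation -0.00342), as do parental 2 and CRISPR_1G2 1 (0.54), so the numbers do not follow the dates. The fit was tested on simulated counts drawn independently for each library. These held no libraries that stand apart and no shared deviations, so that test does not cover either. Sequences are from RefSeq (GRCm38.p6).

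All 10 genes are reported. From each pathway list, every called gene and the most abundant gene without a call are named, and, as most like a called gene, the 5 genes with the highest Pearson correlation of log2 CPM (prior count 2). Around both called genes the 3 tested neighbours on each side were looked at. Markers were summed for duct, fibroblast, immune, endothelial, acinar, islet and red blood cells. The 10 genes, the lists and the libraries that stand apart were chosen with earlier results of these data known. Nothing in the labels says that replicates came from separate cultures, so the spread behind the p-values may be technical.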

Additional observations from a re-analysis of the deposited data

How the results depend on the processing

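Over 20 alternative settings and 3 comparisons, the 10 genes gave 600 values: 519 kept their direction and side of the threshold, 33 newly passed, 6 lost their call and 42 turned direction, none of them in a gene called with all 9 libraries. Calls lost without 1 library are given with Pmepa1 and Tgfbr3 above. The cause of these changes was not tested.

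The values that turned direction were all without a call with all 9 libraries; the furthest from 0 was Tgfb2 in CRISPR_1G2 against parental, at 0.55. Skil in KO_1E7 against parental was 0.00774 with RLE scaling, 0.00781 with DESeq2, 0.0277 with no filter, 0.0151 with a term for the NSG libraries, 0.15 without parental 3 and CRISPR_1G2 3 and 0.16 in the dated libraries; against CRISPR_1G2 it was 0.0827 and 0.0942 in the last 2. Tgfb1 was 0.0780 against parental and 0.0572 against CRISPR_1G2 with the NSG term. In CRISPR_1G2 against parental, Tgfb2 was -0.28 and Smad3 0.0811 without parental 3 and CRISPR_1G2 3, -0.28 and 0.0877 without KO_1E7 2 as well, and -0.28 and 0.0803 in the dated libraries, where Tgfbr2 was 0.0184 in KO_1E7 against CRISPR_1G2. Leaving out 1 library at a time, the ranges that crossed 0 were, against parental in KO_1E7, Tgfb1 -0.31 to 0.21 and Skil -0.16 to 0.16; in CRISPR_1G2 against parental, Tgfb1 -0.19 to 0.52, Tgfb2 -0.63 to 0.96, Tgfb3 -0.0695 to 0.36, Tgfbr1 -0.12 to 0.37 and Skil -0.0750 to 0.22; in KO_1E7 against CRISPR_1G2, Tgfb1 -0.53 to 0.17 and Skil -0.24 to 0.0864.

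Counts of called genes are given as those of the 10 genes, the 91 pathway genes and all genes. With all libraries they were 1, 5 and 854 in KO_1E7 against parental, 0, 0 and 40 in CRISPR_1G2 against parental, and 2, 16 and 2010 in KO_1E7 against CRISPR_1G2. DESeq2 gave 4, 19 and 2358, then 0, 1 and 235, then 4, 31 and 3374. The NSG term gave 3, 16 and 2060 in the first comparison and 4, 26 and 3330 in the third, with Tgfb3 and Tgfbr1 newly called in both. Without parental 3 and CRISPR_1G2 3 they were 4, 27 and 3330, and 5, 27 and 4615. Without KO_1E7 2 as well they were 6, 39 and 4423, then 0, 5 and 326, then 6, 41 and 5557. The dated libraries gave 3, 12 and 1737, and 4, 23 and 3111. With no filter, pathway calls were 3 and 8 in the KO_1E7 comparisons, with 546 genes in all in the first. Fitting 2 groups at a time gave 16 genes for CRISPR_1G2 against parental. The test for any difference called 2 of the 10 genes, and 4, 4, 5 and 6 with DESeq2, the NSG term, without 2 and without 3 libraries. Without 1 library at a time, the 3 comparisons ranged over 0 to 2, 0 to 15 and 24 to 1998, then 0 to 0, 0 to 0 and 15 to 71, then 1 to 4, 3 to 19 and 453 to 2332, and the test for any difference over 0 to 3; the lowest counts of all genes for KO_1E7 came without KO_1E7 3.

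Of the 9 same-numbered pairs, 5 had correlated deviations over 0.1 (range -0.05 to 0.65), and the numbers paired no comparison with KO_1E7. With the replicate number as a block, 2 of the 10 genes, 7 pathway genes and 1298 genes in all were called in KO_1E7 against parental, and 3, 19 and 2614 in KO_1E7 against CRISPR_1G2, with Tgfbr1 newly called in both (log2 1.01, adjusted p = 0.0425, and 0.84, adjusted p = 0.0463). In CRISPR_1G2 against parental, the block gave 0, 0 and 37 and changed no call among the 10 genes. Same-numbered libraries of these groups had correlations of 0.243, 0.469 and 0.647. The differently numbered parental 2 and CRISPR_1G2 1 were at 0.54, so the correlations do not single out the numbers. Under the block, Tgfb1 was 0.0741 against parental and 0.0525 against CRISPR_1G2.

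Counts of Tgfb2 and Tgfbr3 were at most 61 per library, which limits them to large differences. With 3 libraries per group, the exact test allows no permutation p under 0.1.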
